A study of Macaca mulatta with 56 samples.

Results

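The genes described here are 9 members of insulin, insulin-like growth factor (IGF) and leptin signalling, taken by name from a table of 17807 gene identifiers: the ligands IGF1 and IGF2, the IGF-binding proteins IGFBP2 and IGFBP5, the receptors INSR, IGF1R and LEPR, and the adaptors IRS1 and IRS2. They were measured by bulk RNA sequencing in 14 old female rhesus macaques, with 1 library per animal from each of 4 brain regions: amygdala, hippocampus, and the occipital and prefrontal cortices. All animals were 19.4 to 23.2 years old, were socially housed and ate a Western-style diet with 36% of calories as fat and 18.5% as sugars. All had their ovaries and uterus removed about 6 weeks after that diet began. The 7 HT animals then carried estradiol capsules, with mean serum estradiol of 82.1 pg/mL, and the 7 OvH animals carried empty capsules, with 6.6 pg/mL. Every animal lacked ovaries and every animal ate the rich diet, so no library came from an intact or a chow-fed monkey.

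Insulin and the IGFs bind related tyrosine kinase receptors, which phosphorylate the IRS adaptors and through them switch on PI3-kinase, AKT and mTORC1, while AKT keeps FOXO transcription factors out of the nucleus. IGF-binding proteins hold IGFs in the extracellular fluid and limit or prolong their access to the receptor. Leptin, secreted by fat cells, acts through LEPR on JAK2 and STAT3 and is best known for curbing food intake through hypothalamic neurons. In brain, IGF2 is made mainly by the meninges and the choroid plexus, the membranes around the brain and the tissue that secretes cerebrospinal fluid.

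Values are normalised read counts, scaled by the authors so that the upper quartile is the same in every library. Libraries held 34.6 to 93.3 M reads, with a median of 59.9 M. Lengths were not used, so levels are compared between samples for one gene and not between genes. In the table, the amygdala columns and the columns of the other 3 regions did not hold the same transcript under many identifiers: mean levels across identifiers had a Spearman rho of 0.535 to 0.547 between amygdala and another region, against 0.978 to 0.987 among those 3 regions. A gene was therefore read outside the amygdala only if its mean log2(value + 1) there lay within 2 of that in the amygdala, which 75.9% of identifiers met. IGF2 (ENSMMUG00000047449), IGFBP5 (ENSMMUG00000041480), LEPR (ENSMMUG00000003265), IRS1 (ENSMMUG00000019467) and IRS2 (ENSMMUG00000021790) met it. The nearest member inside the limit was IRS1, whose amygdala mean differed from the others by -1.45 on the log2 scale, and the nearest outside was IGF1 at -2.58. IGF1 (ENSMMUG00000002235), IGFBP2 (ENSMMUG00000054183, -3.05), INSR (ENSMMUG00000028907, 3.10) and IGF1R (ENSMMUG00000012305, 8.13) are described in the amygdala alone. The IGF1R entry had 0 to 7 reads per library outside the amygdala. Levels in the amygdala are not tested against those of the other regions, since the limit was set on that gap. How the gap differs between HT and OvH animals is tested.

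Several libraries stood apart by marker genes. The libraries of animals 30 and 43 (both OvH) labelled hippocampus had summed levels of the hippocampal neuron markers PROX1 and FIBCD1 of 620 and 684, against 4837 to 15700 in the other 12. That sum rests mainly on FIBCD1, whose hippocampal median was 10470, against 478 for PROX1. The low sums thus show low FIBCD1, and do not show low PROX1, which ran from 152 to 1045 in hippocampus. The summed cortical neuron markers of animals 30 and 43 were 16190 and 9252, against 1381 to 3683. The hippocampal libraries of animals 40 (HT) and 33 (OvH) had summed choroid plexus markers of 1474000 and 1332000, against at most 50010 in the others. In the amygdala, animal 42 (HT) had a meningeal marker sum of 51060, against 2899 to 10770 in the others, and animal 35 (OvH) a choroid plexus sum of 26160, against 403 to 6714. The sum of animal 35 was mostly TTR (24980). KL, FOLR1 and PRLR were also highest in that library, while KCNJ13 and CLIC6 were highest in animal 42 and F5 in animal 39. Values without the libraries that stood apart are given beside the results of members where they are high or low.

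No member passed the test for a difference between HT and OvH animals in any region. In the amygdala 0 of 9 members were called at an adjusted p below 0.05 (limma on log2(value + 1), Benjamini-Hochberg over all genes tested), where 6.89% of all 16129 genes were called, 6.16% higher in HT and 0.732% lower. Outside the amygdala 0 of the 5 usable members were called in each region, where 0.0% of all genes were called in each. No member had an unadjusted limma p below 0.05 in any single region, and neither edgeR nor DESeq2 called one. Of all genes outside the amygdala, 335 in hippocampus, 303 in occipital and 603 in prefrontal cortex had an unadjusted p below 0.05, and DESeq2 called 12, 0 and 6. In the amygdala 3 members had a difference above 0 and 6 below 0, with a median of -0.14 against 0.01 over all genes. In every one of the 9 amygdala comparisons, and of the 5 in each other region, the gap between group means was smaller than the larger of the group SDs. Normalised counts summed to 71.1 ± 4.46 M per amygdala library in HT and 61.4 ± 4.08 M in OvH (SD, n = 7 each). With totals made equal the median difference of all genes was -0.20, and IGFBP2 and IGFBP5 had -0.14 and -0.21, in place of 0.07 and 0.00. Since the libraries are of bulk tissue, fewer cells of a type and less RNA per cell cannot be told apart.

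**Figure D1:**
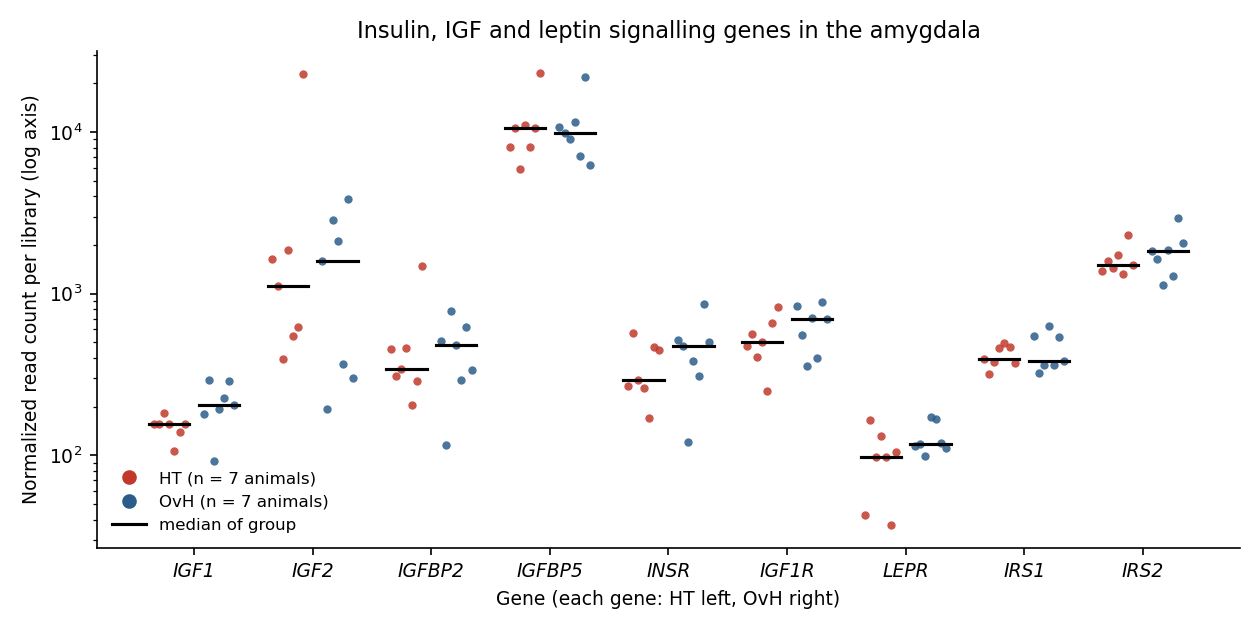
Normalised read counts (log axis) of the 9 members in the amygdala, side by side on a shared axis, with HT animals left of OvH animals and 1 point per animal (n = 7 each). The groups overlap for every gene: LEPR reaches down to 36.9 in HT against 98.4 in OvH, and 1 HT library lies far above the rest in IGF2, at 22770.

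Of the ligands, IGF1, the growth hormone-dependent factor that is also made by neurons and microglia, had amygdala values of 106 at the lowest, 155 at the median and 183 at the highest in HT, against 91.7, 206 and 291 in OvH. All 7 HT libraries lay below the OvH median, and 5 OvH libraries lay above every HT library. One OvH library, of animal 32, lay below every HT library, and it was also the lowest of all 14 for INSR and IRS2. The difference, HT minus OvH, was -0.42 on the log2 scale (95% interval -0.94 to 0.10, limma adjusted p = 0.346). Without animal 32 it was -0.60 with an adjusted p of 0.0433, and leaving out any other single animal gave adjusted p-values up to 0.543. The fit without animal 32 called 2362 genes in the amygdala, against 1112 with all animals. With library totals made equal in place of upper quartiles it was -0.63 (adjusted p = 0.131).

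IGF2, the growth factor of fetal tissues that persists in adult meninges and choroid plexus, spread widely. In the amygdala it ran from 393 through a median of 1110 to 22770 in HT, against 195, 1602 and 3836 in OvH. In hippocampus it ran from 1186 through 2420 to 20670 in HT, against 1000, 2081 and 19920 in OvH. The extremes were those of the libraries named above: animal 42 (HT) in the amygdala, and animals 40 (HT) and 33 (OvH) in hippocampus. Animal 42 also ranked 2 by choroid plexus sum in the amygdala (6714), and animal 40 ranked 2 by meningeal sum in hippocampus (15090). The hippocampal library of animal 41 (HT), with an IGF2 level of 12780, had the highest meningeal marker sum of that region, 20290. High sums did not always go with high IGF2. Animals 39 (HT) and 34 (OvH) ranked 3 and 4 by choroid plexus sum in hippocampus (50010 and 19580), but 9 and 11 by IGF2 (1491 and 1191). In occipital cortex animal 40 (HT) had the highest meningeal (11560) and choroid plexus (3355) sums and ranked 4 by IGF2 (2881). In both cortices no library lay so far apart. IGF2 there ran from 950 through 2370 to 4971 in HT against 1723, 2150 and 3137 in OvH (occipital), and from 1790 through 2150 to 3985 in HT against 1058, 1956 and 3183 in OvH (prefrontal). The difference was 0.53 (-1.25 to 2.31) in amygdala, 0.49 (-1.07 to 2.05) in hippocampus, 0.02 in occipital and 0.38 (-0.13 to 0.89) in prefrontal cortex. Without animals 42 and 35 the amygdala means were 1031 ± 617 in HT and 1235 ± 1111 in OvH (SD, n = 6 each), and without animals 40 and 33 the hippocampal means were 3589 ± 4539 in HT and 1686 ± 659 in OvH.

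**Figure D2:**
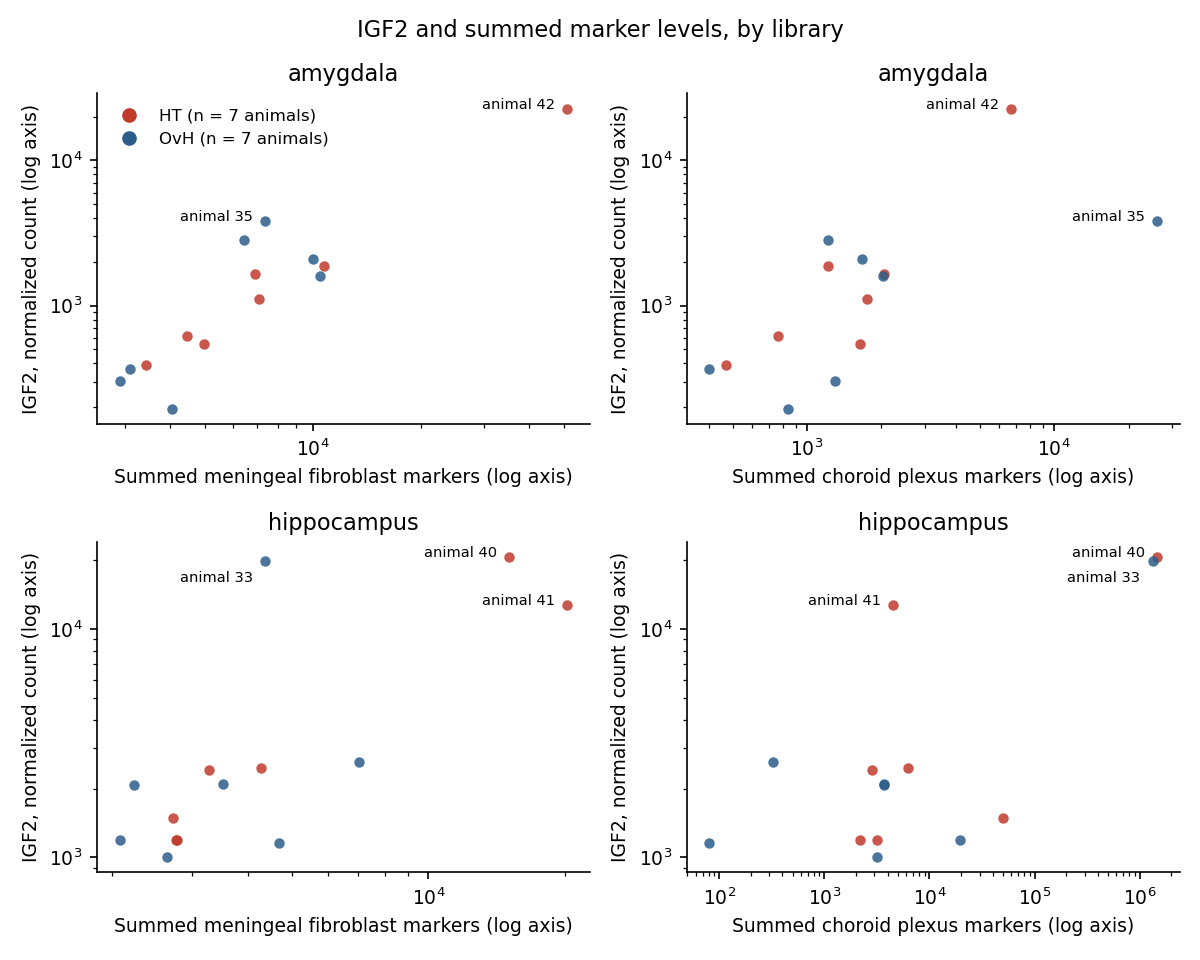
IGF2 in each library plotted against the summed markers of the meninges and of the choroid plexus (normalised read counts, log axes), for the amygdala and the hippocampus. The amygdala library with the highest IGF2 (22770) has the highest meningeal sum there, and the hippocampal libraries with the highest IGF2 (20670 and 19920) have the highest choroid plexus sums there. The next choroid plexus sums in hippocampus, 50010 and 19580, go with IGF2 of 1491 and 1191.

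The binding proteins did not separate the groups. IGFBP2, a binding protein of cerebrospinal fluid and of glia, had amygdala values of 203 at the lowest, 341 at the median and 1484 at the highest in HT, against 117, 478 and 776 in OvH. The highest HT value was again that of animal 42. The difference was 0.07 (-0.83 to 0.97), and without animals 42 and 35 it was -0.13. IGFBP5, a binding protein that also attaches to the extracellular matrix, had amygdala values of 5944, 10540 and 23060 in HT, against 6249, 9909 and 22010 in OvH, where the highest values were those of animals 42 and 35. Its amygdala difference was 0.00 (-0.59 to 0.60).

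In hippocampus IGFBP5 had 12450 at the lowest, 15270 at the median and 30650 at the highest in HT, against 6422, 11970 and 25400 in OvH. All 7 HT libraries lay above the OvH median and 4 OvH libraries lay below every HT library. The lowest of those 4 were those of animals 43 and 30, at 6422 and 9052, which had low summed hippocampal neuron markers. The difference was 0.37 (-0.21 to 0.96), and without those animals it was 0.08. In occipital cortex the order of the groups was the other way: 1790, 3444 and 8200 in HT, against 3010, 5435 and 7809 in OvH, with a difference of -0.47 (-1.07 to 0.13). In prefrontal cortex the medians were 10040 in HT and 8254 in OvH, with a difference of -0.17. There 6 of 7 HT libraries lay above the OvH median, while 2 OvH libraries, of animals 31 (22910) and 35 (21230), lay above every HT library. Within each animal, hippocampus minus the mean of both cortices was 1.49 ± 0.61 on the log2 scale in HT and 0.80 ± 0.36 in OvH (SD, n = 7 each), above 0 in 14 of 14 animals, and 6 of 7 HT animals lay above every OvH animal. The difference between those groups was 0.69 (0.18 to 1.21), which did not pass over all genes (limma adjusted p = 0.999), and without animals 30 and 43 it was 0.59. None of 13520 genes passed for this difference of differences in limma, where 318 had an unadjusted p below 0.05.

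The receptor kinases overlapped between groups in the amygdala. INSR, the insulin receptor, had 171 at the lowest, 293 at the median and 568 at the highest in HT, against 121, 476 and 866 in OvH. The OvH libraries held both the lowest and the highest value. IGF1R, the receptor for IGF1 and IGF2, had 249, 505 and 823 in HT, against 356, 700 and 882 in OvH. The differences were -0.27 (-1.03 to 0.50) for INSR and -0.28 (-0.84 to 0.28) for IGF1R, with limma adjusted p-values of 0.723 and 0.588. Leaving out 1 animal moved INSR from -0.55 (without animal 32) to -0.081 (without animal 35), and IGF1R from -0.41 (without animal 32) to -0.12 (without animal 40). Without animals 35 and 42 the differences were -0.16 for INSR and -0.31 for IGF1R.

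LEPR, the leptin receptor, was counted from few reads: 24 to 200 per amygdala library, 15 to 306 in hippocampus, 12 to 82 in occipital and 13 to 56 in prefrontal cortex. In the amygdala it had 36.9 at the lowest, 97.2 at the median and 165 at the highest in HT, against 98.4, 118 and 172 in OvH. Of the 7 HT libraries 4 lay below every OvH library, the lowest being those of animals 41 and 36. The difference was -0.55 (-1.22 to 0.12, limma adjusted p = 0.343). Outside the amygdala the HT medians were the higher ones: 164 in HT and 152 in OvH in hippocampus, 37.4 in HT and 31.5 in OvH in occipital cortex, and 36.1 in HT and 31.9 in OvH in prefrontal cortex. The groups overlapped in all 3 regions, and the differences in this order were 0.52 (-0.27 to 1.31), 0.52 (-0.20 to 1.24) and 0.13 (-0.43 to 0.68), and their mean per animal was 0.39 (0.01 to 0.765, limma adjusted p = 1). For that mean per animal 0.0% of 13520 genes were called, and 434 had an unadjusted p below 0.05. The hippocampal difference was 0.21 without animals 30 and 43.

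The contrast between the amygdala and the other 3 regions was then compared within animals for LEPR. It takes the LEPR row to hold the same transcript in the amygdala as elsewhere, which the level limit does not show. Amygdala minus the mean of the other regions was 0.42 ± 0.79 on the log2 scale in HT animals, from -0.99 to 1.09, and 1.36 ± 0.20 in OvH animals, from 0.997 to 1.602 (SD, n = 7 each). All 7 HT animals lay below the OvH median, and 5 lay below every OvH animal. The difference between the groups was -0.94 (-1.59 to -0.29), with a limma adjusted p of 0.0956 over the 13520 genes. None of those genes passed in limma, and 3084 had an unadjusted p below 0.05. Leaving out 1 animal at a time gave adjusted p-values from 0.0498 (without animal 39) to 0.202, and without animal 41 the difference was -0.70. Over those fits the number of genes called ran from 0 to 1159. Without animals 30 and 43 the difference was -0.90, and without animals 35 and 42 it was -1.09. Of the marker lists, only those of the vessel wall are given for this contrast. The share of all genes below 0 in it is not given either, so the direction of these lists cannot be set against a background. In the same contrast 8 of 8 endothelial markers lay below 0 (median -0.51, none called, 5 with an unadjusted p below 0.05), as did 4 of 6 pericyte and smooth muscle markers (median -0.59). Summed endothelial markers in the amygdala were 4373 at the lowest, 4971 at the median and 6889 at the highest in HT, against 4942, 6676 and 8797 in OvH. In the amygdala itself, HT minus OvH lay below 0 for other lists too. These were 4 of 4 oligodendrocyte precursor, 4 of 4 cortical neuron, 6 of 8 neuron and 5 of 7 choroid plexus markers. It lay above 0 for 8 of 8 meningeal fibroblast, 6 of 7 oligodendrocyte and 2 of 2 hippocampal neuron markers. The part of these cell types in the LEPR difference was not tested. In the contrast with the other regions, the differences of IGF2, IGFBP5, IRS1 and IRS2 ran from -0.03 to 0.23 (limma adjusted p-values 0.879 to 0.975). LEPROT, a membrane protein gene whose human counterpart shares its promoter and first exons with LEPR, had an amygdala difference of 0.31, with 4205 ± 715 in HT and 3380 ± 453 in OvH (adjusted p = 0.174). How reads were split between overlapping genes, and with which strand setting, is not given in the sources used here.

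The adaptors overlapped between groups in every region. IRS1, which docks PI3-kinase to the insulin and IGF receptors, had amygdala values of 319 at the lowest, 396 at the median and 492 at the highest in HT, against 324, 381 and 633 in OvH. Its differences were -0.10 (-0.49 to 0.30) in amygdala, -0.03 in hippocampus, -0.13 in occipital and -0.04 in prefrontal cortex. IRS2, the adaptor through which insulin and leptin act in hypothalamic neurons of mice, had 1317, 1504 and 2290 in HT amygdala, against 1135, 1830 and 2955 in OvH amygdala (difference -0.14, -0.54 to 0.26). The highest OvH value was that of animal 35, and without animals 35 and 42 the difference was 0.001. In occipital cortex IRS2 had 1539, 2144 and 2408 in HT, against 1486, 2533 and 2954 in OvH, and in prefrontal cortex 1613, 2845 and 3059 in HT, against 1798, 3089 and 3965 in OvH. In both cortices all 7 HT libraries lay below the OvH median and 4 OvH libraries lay above every HT library. The differences were -0.11 in occipital cortex and -0.26 (-0.63 to 0.12) in prefrontal cortex, and IRS2 in hippocampus differed by -0.01.

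**Figure D3:**
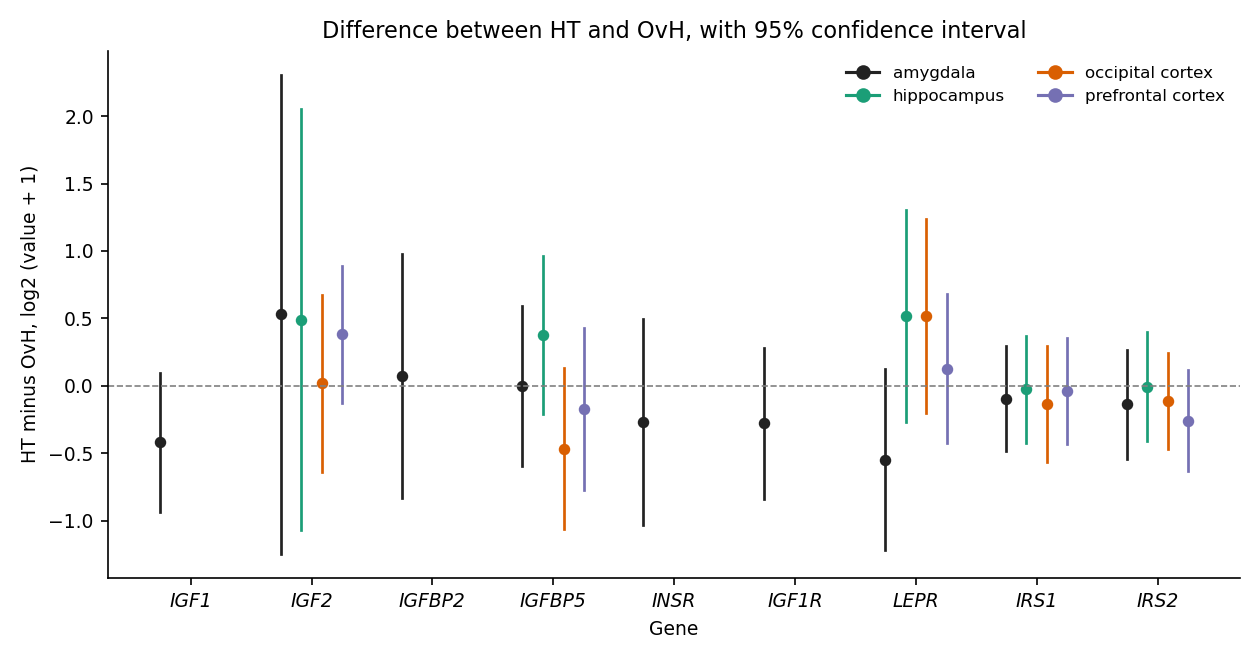
HT minus OvH difference (log2 of the normalised count + 1) of each member and region, with 95% intervals from limma. Of the single-region intervals all include 0, and those of IGF2 in amygdala (-1.25 to 2.31) and hippocampus (-1.07 to 2.05) are the widest.

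Between regions, LEPR, IGFBP5, IRS1 and IRS2 passed in at least 1 contrast and IGF2 in none. Regions were compared within animals over both treatment groups (limma with the animal as a block, 14 animals). Of the 5 members 3 passed for hippocampus against occipital cortex, 3 for hippocampus against prefrontal cortex and 2 for occipital against prefrontal cortex. These contrasts called 50.0%, 42.9% and 47.9% of all 13520 genes, so the members' counts lie near the background.

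**Figure D4:**
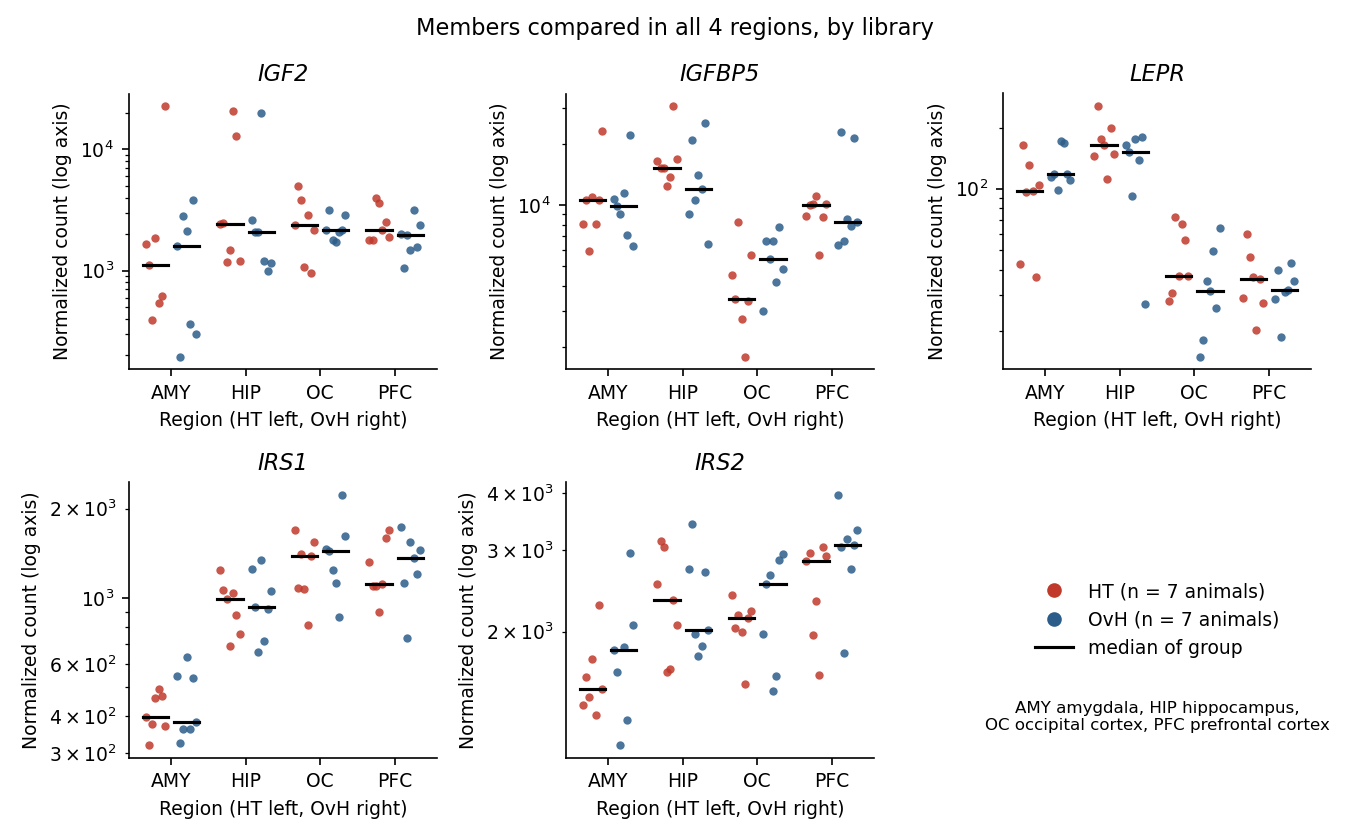
Normalised read counts (log axis) of the 5 members read outside the amygdala, by region, with HT animals left of OvH animals and 1 point per animal. LEPR lies between 112 and 255 in HT hippocampus and between 14.9 and 72.9 in all cortical libraries, and the single low hippocampal library, at 27.0, is that of animal 43 (OvH).

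LEPR was higher in hippocampus than in both cortices: 152 ± 53 in hippocampus, 40.6 ± 18.3 in occipital and 34.6 ± 10.7 in prefrontal cortex (SD, n = 14), beside 112 ± 40 in amygdala. Hippocampus was higher than occipital cortex by 1.88 on the log2 scale (1.40 to 2.37, adjusted p = 8.39e-08), or 3.69-fold, and higher than prefrontal cortex by 2.03 (adjusted p = 7.94e-08), or 4.09-fold. In 13 of 14 animals the hippocampal library lay above every cortical library. The exception was animal 43, at 27.0, one of the libraries with low summed hippocampal neuron markers, whereas animal 30, the other one, had 165. Without these animals the mean was 161 ± 42 in hippocampus (n = 12) and the differences were 2.02 over occipital and 2.19 over prefrontal cortex. The cortices were neighbours in this order and did not differ beyond their spread (occipital minus prefrontal 0.15, adjusted p = 0.641). Many cell type markers also differed between these regions. Hippocampal neuron markers (2 of 2), microglial markers (5 of 5) and oligodendrocyte precursor markers (2 of 3) were higher in hippocampus than in each cortex, and cortical neuron markers (3 of 3) were lower. Choroid plexus markers were higher in 4 of 5 over occipital and 2 of 5 over prefrontal cortex, oligodendrocyte markers in 0 of 6 and 5 of 6, and astrocyte markers in 2 of 5 and 4 of 5. In the libraries of animals 40 and 33, rich in choroid plexus transcripts, LEPR was 112 and 176, within the range of the other hippocampal libraries. The part of these or other cell types, choroid plexus included, in the difference was not tested.

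IGFBP5 was graded over all 3 regions: 15640 ± 6407 in hippocampus, 10450 ± 5165 in prefrontal and 4874 ± 1952 in occipital cortex, beside 10980 ± 5209 in amygdala (SD, n = 14). Hippocampus exceeded occipital cortex by 1.69 (1.37 to 2.02, adjusted p = 1.95e-10) in 14 of 14 animals and prefrontal cortex by 0.60 (0.28 to 0.92, adjusted p = 0.00297) in 12 of 14. Occipital cortex was lower than prefrontal cortex in 14 of 14 animals (difference -1.10, SE 0.16, adjusted p = 1.46e-06). Each neighbouring pair in this order therefore differed. Without animals 30 and 43 hippocampus exceeded occipital cortex by 1.81 and prefrontal cortex by 0.68.

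Both adaptors differed between regions, each in its own order. IRS1 averaged 967 ± 218 in hippocampus, 1355 ± 369 in occipital and 1283 ± 297 in prefrontal cortex, beside 430 ± 94 in amygdala (SD, n = 14). It was lower in hippocampus than in occipital cortex in 12 of 14 animals (difference -0.47, adjusted p = 0.00087) and lower than in prefrontal cortex in 14 of 14 (difference -0.40, adjusted p = 0.00488). The cortices, neighbours in this order, did not differ beyond their spread (0.07, adjusted p = 0.649). Without animals 30 and 43 the hippocampal differences were -0.48 and -0.39. IRS2 averaged 2352 ± 585 in hippocampus, 2185 ± 463 in occipital and 2774 ± 642 in prefrontal cortex, beside 1718 ± 476 in amygdala. It was lower in occipital than in prefrontal cortex in 12 of 14 animals (difference -0.34, adjusted p = 0.0101). Hippocampal IRS2 lay between them, -0.24 from prefrontal cortex (-0.46 to -0.02, adjusted p = 0.0697) and 0.10 from occipital cortex (adjusted p = 0.470). Without animals 30 and 43 these were -0.17 and 0.12. With library totals made equal, the hippocampal difference from prefrontal cortex was -0.31 and passed (adjusted p = 0.0315).

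IGF2 had the highest mean in hippocampus, 5161 ± 7076, against 2439 ± 1062 in occipital and 2240 ± 830 in prefrontal cortex (SD, n = 14), but the order was not carried by most animals. Hippocampus was higher than occipital cortex in 7 of 14 animals and higher than prefrontal cortex in 8 of 14. The differences were 0.27 (adjusted p = 0.579) and 0.35 (adjusted p = 0.470). Without animals 33 and 40 they were -0.22 and -0.18. Animal 41, with the highest meningeal marker sum in hippocampus, had a within-animal difference from the cortices of 3.05, close to those of animals 40 (3.05) and 33 (3.64).

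**Figure D5:**
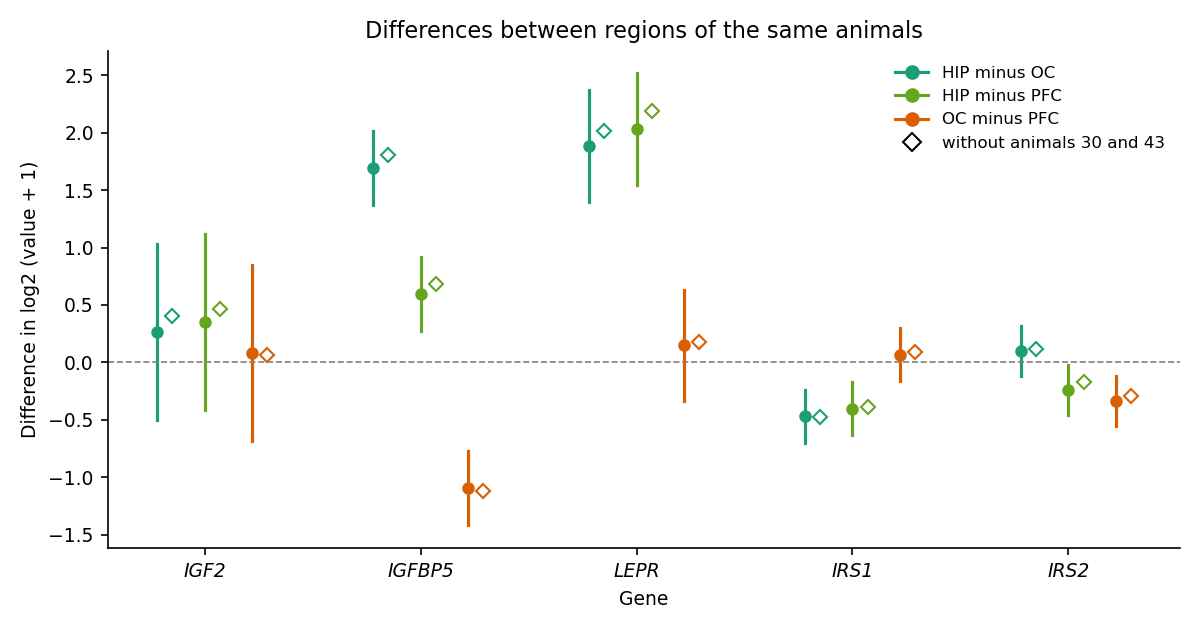
Differences between regions for the 5 members (log2 of the normalised count + 1, with 95% intervals; 14 animals each). LEPR stands at 1.88 and 2.03 in hippocampus over the occipital and prefrontal cortices and IGFBP5 at 1.69 and 0.60, and every IGF2 interval includes 0.

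The wider pathway was read from lists of other ligands and binding proteins, receptors, adaptors, inhibitors, PI3K, AKT and FOXO genes, mTORC1 genes and leptin and satiety genes, 86 of them in the table. In the amygdala 3 of 85 tested passed, all higher in HT, where 6.16% of all genes were called higher. GRB14, an adaptor that binds the activated insulin receptor and inhibits it, averaged 1909 ± 343 in HT and 911 ± 329 in OvH (SD, n = 7 each). Every HT library lay above every OvH library, and the difference was 1.14 (0.67 to 1.61, adjusted p = 0.00786). FOXO4, a FOXO transcription factor that AKT inhibits, averaged 3319 ± 605 in HT and 1999 ± 485 in OvH (difference 0.75, adjusted p = 0.00901), also without overlap. The share of all amygdala genes without overlap was not counted. GAB2, a docking adaptor that recruits PI3-kinase, averaged 3851 ± 758 in HT and 2525 ± 331 in OvH, with a difference of 0.60 (0.31 to 0.88, adjusted p = 0.0151) and 6 of 7 HT libraries above every OvH library.

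Cell type markers were read for the same amygdala comparison, and their directions were mixed. Meningeal fibroblast markers had 8 of 8 differences above 0 (median 0.67, none called), microglial markers 3 of 6 (1 called higher) and neuron markers 2 of 8 (median -0.25, 1 called lower). The highest meningeal sum, 51060, was that of animal 42 (HT), and the next was 10770. Endothelial markers had 7 of 8 below 0 (median -0.35, none called). Oligodendrocyte precursor markers had 4 of 4 below 0 (median -0.21) and cortical neuron markers 4 of 4 (median -0.31), none called. Oligodendrocyte markers had 6 of 7 above 0 (median 0.41). Their summed level in the amygdala was 744500 at the lowest, 1040000 at the median and 1469000 at the highest in HT, against 330500, 654200 and 1175000 in OvH, and 1 of 7 passed the test. With the mean log2 level of these markers as a covariate the difference was 1.02 for GRB14 (adjusted p = 0.0452), 0.63 for FOXO4 (adjusted p = 0.0634) and 0.51 for GAB2 (adjusted p = 0.0917), against 1.14, 0.75 and 0.60 without it. The part of the other cell types was not tested. With library totals made equal GRB14 differed by 0.93 (adjusted p = 0.0199) and GAB2 by 0.38 (adjusted p = 0.096). Without animals 35 and 42 GAB2 differed by 0.58 (adjusted p = 0.0708), GRB14 by 1.03 (adjusted p = 0.0454) and FOXO4 by 0.70 (adjusted p = 0.0472). In the other regions the differences, for hippocampus, occipital and prefrontal cortex in turn, were 0.33, 0.03 and 0.10 for GRB14, 0.13, -0.11 and 0.12 for FOXO4, and 0.18, -0.09 and -0.09 for GAB2.

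The signs of the list genes in the amygdala depended on the scaling. Over all genes 51.2% of differences lay above 0, and 30.5% with library totals made equal. All 10 other ligand and binding protein genes had differences above 0 (median 0.13), but with equal totals 8 of 10 lay below 0 (median -0.08). The smallest p-values in this list were those of IGFBP6 (0.32, adjusted p = 0.506) and IGFBP7 (0.20, adjusted p = 0.580), which bind IGFs outside the cell. Of 15 PI3K, AKT and FOXO genes 13 lay below 0 (median -0.22), and 14 with equal totals (median -0.44), with FOXO4 among the exceptions and PIK3CA, the catalytic PI3-kinase subunit, at -0.68 (adjusted p = 0.186). Of 17 mTORC1 genes 12 lay below 0 (median -0.13), and 15 with equal totals (median -0.34). RHEB, the small GTPase that activates mTORC1, was the nearest to passing, with 26050 ± 5183 in HT and 18440 ± 2519 in OvH (0.48, adjusted p = 0.0606). The leptin and satiety list had 7 of 10 above 0 (median 0.09), and 4 with equal totals (median -0.12). The receptor list, 3 above and 3 below 0, had ADIPOR1 at -0.16 and ADIPOR2 at 0.22, the receptors of adiponectin. Of the inhibitors, PTPN2, a phosphatase that acts on the insulin receptor and JAK kinases, had 0.33 (adjusted p = 0.0989). In the other regions 0 of 67 pathway genes passed in limma, and 0, 2 and 0 had an unadjusted p below 0.05 in hippocampus, occipital and prefrontal cortex. Those in occipital cortex were SOCS3, a feedback inhibitor of LEPR signalling (0.80, adjusted p = 0.999), and RPS6KB2, an mTORC1 substrate kinase (-0.38).

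Between regions, pathway genes were called about as often as all genes. Hippocampus against occipital cortex called 22 of 67 higher and 12 lower, where 27.6% and 22.4% of all genes were called. FOXO6, a FOXO factor of hippocampal neurons in mice, averaged 283 ± 137 in hippocampus, 35.6 ± 18.4 in occipital and 81.9 ± 27.5 in prefrontal cortex. Its difference was 2.90 over occipital cortex (adjusted p = 4.34e-12) and 1.64 over prefrontal cortex (adjusted p = 1.09e-06). GHR, the growth hormone receptor, was higher by 1.23 in hippocampus than in occipital cortex. The binding proteins IGFBP3 and IGFBP4, which carry IGFs in blood and tissue fluid, were higher in hippocampus than in occipital cortex by 0.79 and 0.94, and than in prefrontal cortex by 0.64 and 0.80. DEPTOR, an inhibitor of mTOR, was lower in hippocampus than in occipital cortex (difference -1.22, adjusted p = 9.55e-10), as was PIK3R3, a regulatory PI3-kinase subunit (difference -0.98).

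Against prefrontal cortex, hippocampus had 10 of 67 higher and 22 lower, where 20.7% and 22.1% of all genes were called. SHC3, a neuronal adaptor of receptor kinases, was lower in hippocampus (17260 against 33170, difference -0.95), as was PIK3CB, a catalytic PI3-kinase subunit (difference -0.80). Occipital against prefrontal cortex called 9 higher and 24 lower, where 19.9% and 28.0% of all genes were called. DEPTOR was higher in occipital cortex by 1.18, as was IDE, the protease that degrades insulin, by 0.57. DDIT4, a stress-induced inhibitor of mTORC1, was lower there (difference -1.62), as was MC4R, the melanocortin receptor of satiety circuits (difference -1.55).

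The genes whose levels ran most like each member were taken by Pearson r over log2 values, as a description of libraries that share depth and tissue composition. Over the 14 amygdala libraries the nearest were ATMIN for IGF1 (0.946), GJB2 for IGF2 (0.968), MXRA8 for IGFBP2 (0.925), PARD3 for IGFBP5 (0.925), DNAAF9 for INSR (0.970), SOX13 for IGF1R (0.953), DCAF10 for LEPR (0.902), PPL for IRS1 (0.873) and CACNA2D2 for IRS2 (0.917). GJB2 and ZIC1 (0.961), the leading genes for IGF2, are a gap junction gene and a transcription factor gene that meningeal cells express. Over the 42 libraries of the other regions the nearest were PCOLCE for IGF2 (0.917), GALNT16 for IGFBP5 (0.893), KIT for LEPR (0.888), KIAA1217 for IRS1 (0.829) and MIEF1 for IRS2 (0.882). PCOLCE and COL1A1 (0.845), both near IGF2, encode a collagen-processing protein and a fibrillar collagen. CFB, a complement factor gene, ranked between them (0.8605), and COL1A1 is itself one of the meningeal fibroblast markers used above.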

How the data were processed

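Per the submitters' processing notes, the tools were Trimmomatic, the aligner STAR (version 2.7.3a) and edgeR 3.28.0, and the genome build was Mmul_10. The deposited values are upper-quartile normalised read counts (a signal scale that is not whole), and dividing each library by its smallest step gave whole reads for 100% of values within 0.01 reads. Of the 17807 identifiers, 15123 matched a symbol.

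HT and OvH animals (7 each, different animals) were compared per region with limma 3.58.1 (R 4.3.3) on log2(value + 1), for genes with a mean of at least 10, with Benjamini-Hochberg adjustment over all genes and a threshold of 0.05. Fold changes on that scale understate changes of low genes. edgeR 4.0.16 and DESeq2 1.42.0 were run on the recovered reads as alternatives. Regions were compared with the animal as a block, since the labels give 1 animal number to its 4 libraries (mean correlation of same-animal deviations 0.287 to 0.494). For HT against OvH, p-values rest on the spread between animals, and for regions on the spread left within animals. Scripts were tested on simulated data.

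The members, the pathway lists and the markers were chosen with earlier results of these data known. All 9 members are named. A pathway gene is named if it passed, up to 6 per list and direction by size, and otherwise if it had one of the 2 smallest p-values of its list, of which the text gives a selection. The rule for reading an identifier outside the amygdala is a level limit, so an unrelated transcript of similar level can pass it.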

Additional observations from a re-analysis of the deposited data

Results flagged for a closer look

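Of the 48 groups of 7 libraries examined, 6 held a library whose gap to its neighbour, as a share of the whole range of its group, exceeded Dixon's 95% critical value, which chance passes in about 1 in 20 groups. They were IGF2 in HT amygdala (animal 42, 22770, gap 0.934 of the range), IGF2 in OvH hippocampus (animal 33, 19920, gap 0.915), IGFBP2 in HT amygdala (animal 42, 1484, gap 0.8), IGFBP5 in HT hippocampus (animal 41, 30650, gap 0.758), IGFBP5 in HT amygdala (animal 42, 23060, gap 0.706) and IGFBP5 in OvH amygdala (animal 35, 22010, gap 0.669). Animal 42 thus gave 3 of them. Its amygdala library also had the highest meningeal marker sum of that region (51060), the hippocampal libraries of animals 41 and 33 the highest meningeal sum (20290) and the second-highest choroid plexus sum (1332000) of theirs, and the amygdala library of animal 35 the highest choroid plexus sum of its region (26160).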

How the results depend on the processing

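With limma, 1112 genes passed in the amygdala (994 higher, 118 lower); 445 passed with the mean log2 oligodendrocyte marker level as a covariate, 1732 with DESeq2, 315 without animals 35 and 42, and 916 with all regions in 1 fit and the animal as a replicate block. Equal totals moved the split to 617 higher and 1013 lower (median of all genes -0.20), and edgeR, on recovered reads, called 1018 genes, 675 higher and 343 lower. In hippocampus 1 gene passed with equal totals and 12 with DESeq2, in occipital cortex 1 with the replicate block, and in prefrontal cortex 1 with a pseudocount of 16, 6 with DESeq2 and 1 with the replicate block, against 0 each. For the amygdala contrast with the other regions 505 passed with equal totals, 1 without animals 30 and 43 and 267 with no replicate block, against 0. A level limit of 1 left 3 of the 5 members outside the amygdala. Without the animal block the region contrasts called 5863, 4735 and 5484 genes, and the members' counts did not change.

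Leaving out 1 animal at a time gave 548 (without animal 33) to 2362 (without animal 32) amygdala genes, 0 to 1 amygdala members (IGF1), 0 to 1 genes in each of occipital cortex, prefrontal cortex and the mean of 3 regions, and, for the amygdala contrast, 0 to 1159 genes and 0 to 1 members. Small differences changed sign. In amygdala IGFBP2 had -0.14 with equal totals and -0.13 without animals 35 and 42; IGFBP5 had -0.21 with equal totals, -0.11 with edgeR, -0.024 with DESeq2 and -0.01 without animals 35 and 42; IRS1 had 0.055 with the covariate and IRS2 0.001 without animals 35 and 42. In hippocampus IRS1 had 0.15 with the covariate, 0.08 without animals 30 and 43 and 0.03 without 33 and 40, and IRS2 0.017 with equal totals, 0.034 with the covariate, 0.006 without 30 and 43 and 0.007 without 33 and 40. Over the mean of 3 regions IGFBP5 had 0.036 without 33 and 40, and IRS1 0.009 with the covariate and 0.034 without 30 and 43. IGF2 in hippocampus had -0.22 against occipital and -0.18 against prefrontal cortex without 33 and 40. In the amygdala contrast IGF2 had -0.13 without 35 and 42, IGFBP5 -0.13 with equal totals and -0.024 without 35 and 42, IRS1 0.037 without 35 and 42, and IRS2 0.011 without 33 and 40 and 0.10 without 35 and 42. In the hippocampal contrast LEPR had -0.12 without 30 and 43. The cause of these changes was not tested.

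Leaving out 1 animal changed the sign within these ranges: amygdala IGF2 -0.14 to 0.86, IGFBP2 -0.24 to 0.24, IGFBP5 -0.20 to 0.19; hippocampus IRS1 -0.12 to 0.056, IRS2 -0.085 to 0.089; occipital IGF2 -0.17 to 0.23; prefrontal IGFBP5 -0.29 to 0.021, LEPR -0.003 to 0.25, IRS1 -0.17 to 0.037; mean of 3 regions IGFBP5 -0.20 to 0.057; occipital against prefrontal IGF2 -0.032 to 0.22. In the amygdala contrast they were IGF2 -0.54 to 0.65, IGFBP5 -0.066 to 0.28, IRS1 -0.12 to 0.033 and IRS2 -0.079 to 0.077, and in the hippocampal contrast IGF2 -0.14 to 0.87, LEPR -0.25 to 0.38 and IRS1 -0.03 to 0.18. In the other alternative settings, for members and for pathway genes that passed, 925 values kept direction and call. There 43 lost the call, 1 gained it and 27 changed sign. Fits that left out 1 animal are not in these counts. LEPR, at 12 to 82 reads per occipital and 13 to 56 per prefrontal library, has the fewest reads of the 5 members read in the cortices. Leaving out the pairs of animals was chosen after seeing the data.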
